A study of Caenorhabditis elegans with 2 samples.

Results

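The TGF-beta pathway genes of Caenorhabditis elegans were examined as 10 genes chosen by name, each a ligand, receptor or SMAD gene of the dauer or the body size branch. They are daf-7, daf-1, daf-4, daf-8, daf-14 and daf-3 for the dauer branch and dbl-1, sma-6, sma-2 and sma-3 for the body size branch, out of 19973 protein-coding genes on the nuclear chromosomes. For each gene, every peak summit in the gene and in the 5 kb upstream of its annotated start was collected, and 14 of the 6283 peaks in the reproducible list met this rule. The peaks come from chromatin immunoprecipitation with an anti-GFP antibody and sequencing of DSC-1, a paired-like homeodomain transcription factor. The animals were hermaphrodite L1 larvae of strain OP522, genotype unc-119(tm4063) III; wgIs522, in which DSC-1 ends in a GFP-FLAG tag, collected 6 hours after synchronization from larvae starved after bleaching. Both libraries carry this transgene and allele. There was 1 group of 2 biological replicates of whole animals, so no condition could be compared with another, and peaks in different tissues cannot be told apart. The control was not analysed here, and the labels do not give the promoter that drives the transgene.

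In C. elegans the secreted ligand DAF-7 signals through the type I receptor DAF-1 and the type II receptor DAF-4 to the receptor-regulated SMADs (R-SMADs) DAF-8 and DAF-14, which counter the Co-SMAD DAF-3 and so keep larvae out of the dauer stage, a stress-resistant alternative larval stage. The BMP-like ligand DBL-1 signals through the type I receptor SMA-6 and the same type II receptor DAF-4 to SMA-2 and SMA-3, and loss of this branch gives small animals. Here daf-4 is counted with the dauer genes, although its product serves both branches. The Co-SMAD gene of the body size branch, sma-4, is not among the 10 and is listed with the other pathway genes.

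Of the 10 genes, 6 carried at least 1 summit of the IDR list, the pooled peaks left after the authors filtered on the irreproducible discovery rate (IDR), a measure of how well replicates rank the same peaks. The same rule applied to all protein-coding genes called 32.9%, and 35.9% of the 8813 genes whose window (gene and 5 kb upstream) was of a length within the range of the 10, 6.93 to 12.55 kb. With daf-1, daf-4 and daf-14, 3 of the 10 genes carried 3 summits, of which 2 in daf-14 share 1 deposited peak. Among all protein-coding genes, not matched for window length, 4.24% carried at least 3 summits. The genes daf-8 and daf-3 had 2 summits each and dbl-1 had 1. No IDR summit lay in the windows of daf-7, sma-6, sma-2 and sma-3. By branch, 5 of 6 dauer genes and 1 of 4 body size genes had a summit, with 13 summits in the former and 1 in the latter. This split depends on counting the 3 summits of daf-4, whose product serves both branches, with the dauer genes only. The difference between the branches was not tested, since genes are not replicates and the list is small.

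**Figure D1:**
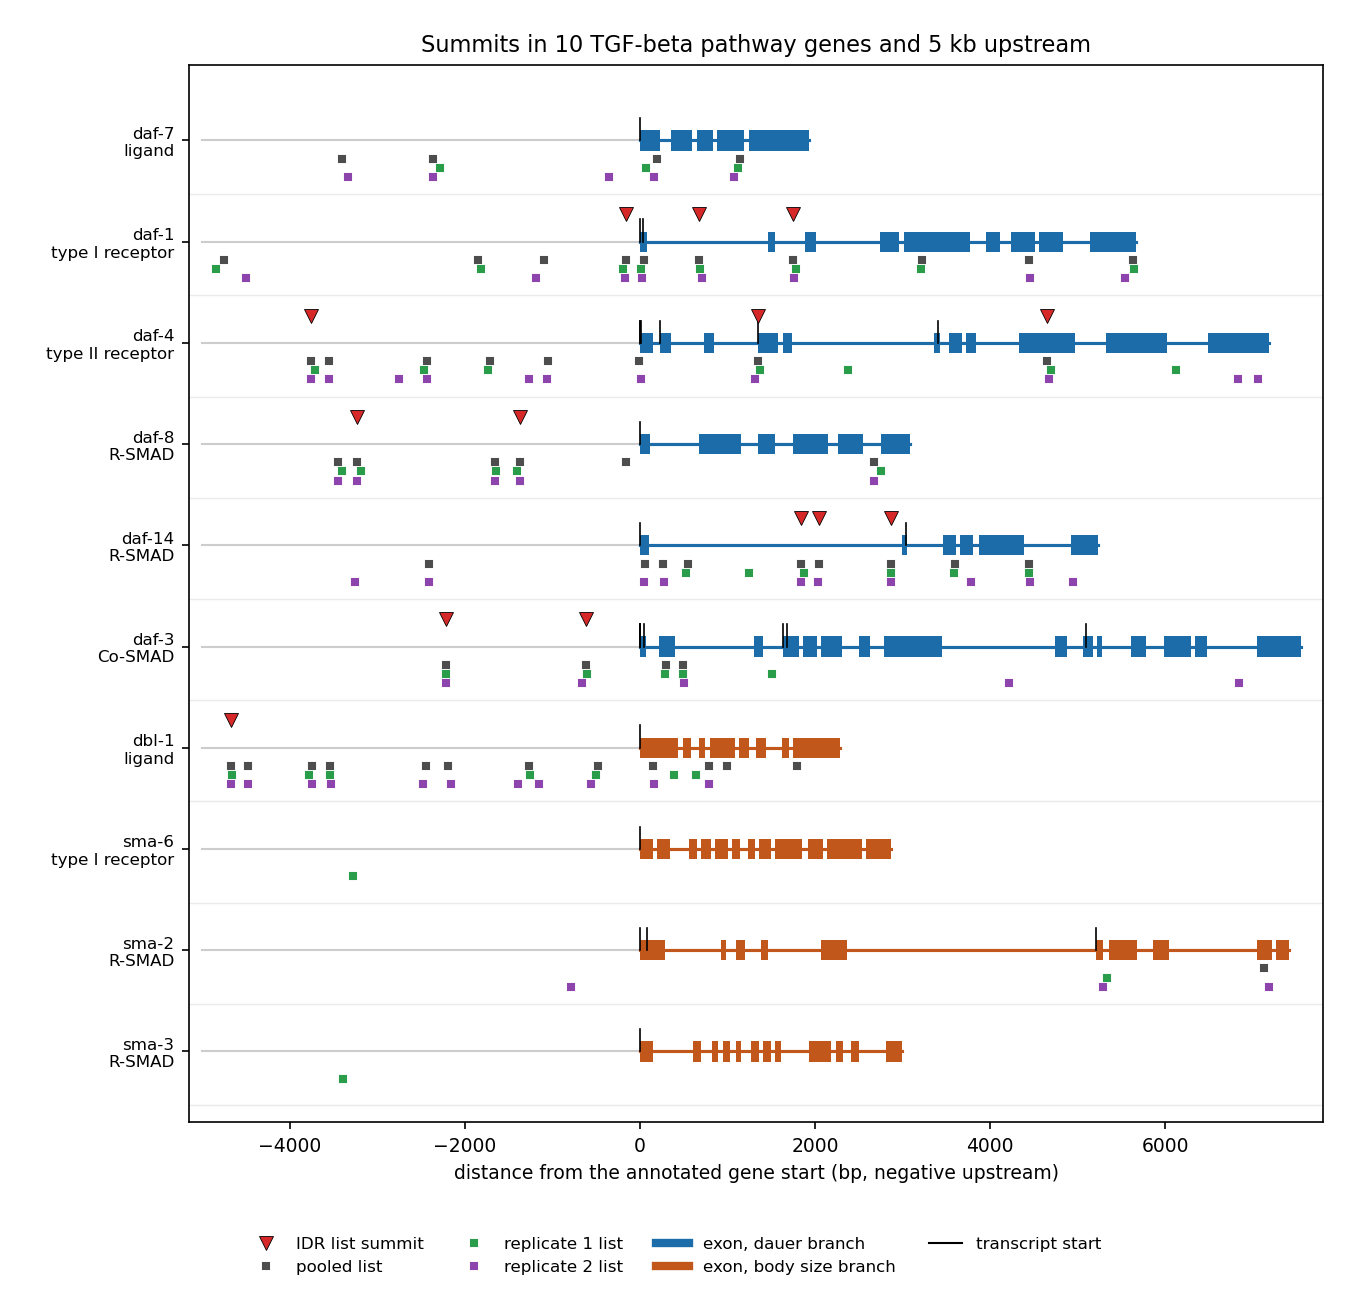
Map of the 10 windows, with distance from the annotated gene start in bp on the horizontal axis (negative upstream) and 1 gene per row. Boxes are exons merged over transcripts, black ticks are annotated transcript starts, red triangles are IDR summits, and squares below each gene are summits of the pooled, replicate 1 and replicate 2 lists before the threshold. The 3 daf-14 triangles lie in its first intron, and the rows of sma-6, sma-2 and sma-3 are nearly empty in every list.

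The sequences under 6 of these summits are shown, namely the strongest summit of 5 of the 6 genes with an IDR summit and the next strongest of daf-14, because the results turn most on them. No sequence is printed for daf-8. Each line gives the summit base and 50 bases to each side from ce11, 5′ to 3′ on the strand of the gene, read from the RefSeq copy of that assembly (WBcel235). Capitals mark every match on either strand to any of 6 words. For homeodomain proteins these are the core TAATTA, which reads the same on both strands, and a spaced pair, TAAT followed after any 3 bases by its reverse complement. For other factors they are the GATA factor word AGATAA, the SMAD palindrome GTCTAGAC, the repeat word GAGAGA, and the E-box word CACGTG. The last of these words was added after the sequences had been seen.
daf-14 2862 bp downstream of the gene start, chrIV:10253439-10253539, plus strand: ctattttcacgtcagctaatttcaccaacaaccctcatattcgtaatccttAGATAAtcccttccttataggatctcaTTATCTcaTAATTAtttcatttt
daf-14 1841 bp downstream of the gene start, chrIV:10252418-10252518, plus strand: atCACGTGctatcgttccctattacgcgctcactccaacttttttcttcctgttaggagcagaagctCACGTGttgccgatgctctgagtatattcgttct
dbl-1 4676 bp upstream of the gene start, chrV:6753409-6753509, plus strand: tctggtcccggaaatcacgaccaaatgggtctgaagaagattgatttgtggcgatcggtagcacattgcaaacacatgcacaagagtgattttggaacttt
daf-1 1751 bp downstream of the gene start, chrIV:134117-134217, plus strand: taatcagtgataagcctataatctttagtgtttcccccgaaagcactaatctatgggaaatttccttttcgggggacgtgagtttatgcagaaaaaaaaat
daf-3 611 bp upstream of the gene start, chrX:826036-826136, minus strand: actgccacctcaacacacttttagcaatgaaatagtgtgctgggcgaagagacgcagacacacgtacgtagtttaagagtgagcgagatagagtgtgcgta
daf-4 3755 bp upstream of the gene start, chrIII:5621330-5621430, plus strand: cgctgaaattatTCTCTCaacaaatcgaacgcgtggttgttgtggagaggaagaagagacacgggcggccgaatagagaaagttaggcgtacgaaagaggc

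The ligand genes differed in the lists. At dbl-1 (chromosome V, 6758135 to 6760418, plus strand) the single IDR summit was 4676 bp upstream, near the edge of the window, with a signal of 361 at rank 984. The overlapping peak had a signal of 162 at rank 878 in replicate 1 and a signal of 195 at rank 1144 in replicate 2, so both libraries placed it in the upper part of the list. The nearest protein-coding gene upstream of dbl-1 was 9521 bp away, and dbl-1 was the gene with the nearest start to this summit. Before the threshold the dbl-1 window held 12 pooled summits, the most of the 10 genes, at 1.65 per kb. At daf-7 (chromosome III, 811844 to 813773, plus strand) there was no IDR summit, and the strongest of 4 pooled summits was 2360 bp upstream, at rank 8979 with a signal of 52.3. The peak there was at rank 14416 in replicate 1 and at rank 8514 in replicate 2.

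The type I receptor gene daf-1 (chromosome IV, 132416 to 138081, plus strand) had 3 summits around its first exons. A summit in the second intron, 1751 bp downstream of the start, was the strongest, with a signal of 340 at rank 1094. In replicate 1 the overlapping peak had a signal of 116 at rank 1564, and in replicate 2 a signal of 222 at rank 889. A summit 162 bp upstream of the start had a signal of 133 at rank 3853, with ranks 4706 and 3922. A summit 674 bp downstream, in the first intron of 1379 bp, was at rank 6140 with a signal of 80.4, close to the lowest signal in the list, 78.4. Its overlapping peak was at rank 9074 in replicate 1, outside the 6283 strongest of that list, and at rank 5568 in replicate 2. The type I receptor gene of the other branch, sma-6 (chromosome II, 6324484 to 6327355, plus strand), had no summit in the IDR list, the pooled list or replicate 2. Replicate 1 alone listed a summit 3274 bp upstream of sma-6, at rank 4328 with a signal of 51, 51 bp from the start of the neighbour efr-3 and overlapped by no peak of the other lists.

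The type II receptor gene daf-4 (chromosome III, 5625135 to 5632323, plus strand) had 3 summits spread over its window. The strongest was 3755 bp upstream, with a signal of 198 at rank 2483 in the pooled replicates, a signal of 84.7 at rank 2470 in replicate 1 and a signal of 123 at rank 2316 in replicate 2. Both libraries ranked it close to its pooled rank. No other protein-coding gene lies in the daf-4 window, and the nearest annotated non-coding gene start to this summit, that of the ncRNA gene C05D2.13, was 130 bp away. A summit 1343 bp downstream of the gene start, at rank 5013 with a signal of 102, lay in an intron of the longer transcripts and 8 bp upstream of the start of transcript C05D2.1c.3. It had rank 3759 in replicate 1 and rank 6407 in replicate 2, just outside the 6283 strongest of the latter. A summit 4644 bp downstream, at rank 5022 with a signal of 102, lay in a coding exon, the only one of the 14 to do so, with ranks 4664 and 5012.

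The R-SMAD gene daf-14 (chromosome IV, 10250627 to 10255852, plus strand) carried the strongest peak of the 10 genes, and its next strongest peak ranked above those of the other 9. Its strongest summit, with a signal of 907 in the pooled replicates, lay 2862 bp downstream of the outermost start at rank 98 of 6283, so that 1.54% of the list was stronger. In replicate 1 the overlapping peak had a signal of 363 and rank 116, and in replicate 2 it had a signal of 541 and rank 100, with the summit at the same base in both. This placed it among the strongest peaks of both libraries. The next, 1841 bp downstream of the gene start, had a signal of 736 at rank 186, with rank 266 in replicate 1 and rank 157 in replicate 2. The other summit, 2043 bp downstream and inside the same deposited peak of 421 bp, had a signal of 179 at rank 2795. Replicate 2 resolved it as a separate summit at rank 2972, while in replicate 1 the single peak that overlaps it was the one at rank 266, whose summit lay 173 bp away. The 14 summits of the pathway therefore stand for 13 distinct peak regions.

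All 3 daf-14 summits lay in the first intron of the longer annotated transcript, F01G10.8b.1, an intron of 2888 bp. The shorter transcript, F01G10.8a.1, starts inside the gene, 3039 bp downstream of the outermost start. Measured from that internal start, the strongest summit was 177 bp upstream, and the others were 1198 and 996 bp upstream. A promoter window drawn from the outermost start alone (1000 bp upstream to 200 bp downstream) therefore held none of the daf-14 peaks. Of all protein-coding genes, 183 (0.916%) had a summit as strong as rank 98 in their windows. The printed bases at the strongest daf-14 summit held 1 TAATTA and 2 AGATAA, and those at the summit 1841 bp downstream held 2 CACGTG.

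The R-SMAD gene daf-8 (chromosome I, 8584424 to 8587507, minus strand) differed from daf-14 in having its summits upstream and near the middle of the list. A summit 1375 bp upstream of the start had a signal of 138 at rank 3729, with rank 4501 in replicate 1 and rank 3367 in replicate 2. A summit 3236 bp upstream had a signal of 162 at rank 3119, with ranks 3033 and 3392. The latter lay 472 bp from the start of the divergent neighbour ran-4, a nuclear transport factor gene, and was nearer to that start than to daf-8. The remaining R-SMAD genes, sma-2 (chromosome III, 8749680 to 8757089, plus strand) and sma-3 (III, 6860974 to 6863968, minus strand), had no IDR summit. In the lists before the threshold, sma-2 had 1 summit in the pooled list, at rank 18598 of 30000 with a signal of 27.4, and 1 in replicate 1 and 3 in replicate 2, none stronger than rank 9323. For sma-3 the only summit of any list was in replicate 1, at rank 24602 of 26482, inside the coding sequence of the neighbour cra-1. Of the 4 R-SMAD genes, 2 had an IDR summit, beside 32.9% of all protein-coding genes.

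The Co-SMAD gene daf-3 (chromosome X, 817922 to 825475, minus strand) had 2 summits, both upstream. The one 611 bp upstream of the start had a signal of 225 at rank 2105. Its overlapping peak had a signal of 71.3 and rank 3044 in replicate 1 and a signal of 159 and rank 1591 in replicate 2. The summit 2214 bp upstream was at rank 3171 with a signal of 160, and at ranks 4008 and 3141 in the replicates. It was nearer to the start of the divergent neighbour wdr-54, at 1214 bp, than to that of daf-3. Both daf-3 summits ranked higher in replicate 2. The 7554 bp of the daf-3 gene held no IDR summit, and its 2 pooled summits before the threshold were no stronger than rank 12074.

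Over the 14 summits, 7 were upstream of the gene start and 7 inside the gene. None lay in a UTR, 6 lay in introns, 1 in a coding exon and 7 outside protein-coding genes, where all IDR summits had 26.8% in introns, 5.25% in coding exons and 63.6% outside. Only the summit of daf-1 at 162 bp and that of daf-3 at 611 bp fell in the promoter window of the outermost start, so 2 of 10 genes were called, against 14.7% of all protein-coding genes. With the window placed at every annotated transcript start, a choice made after the data were seen, daf-4 and daf-14 were added and 4 of 10 genes were called, against 16.2%. For 12 of the 14 summits the member's own start was the nearest protein-coding gene start. No like share over all genes is given, and windows with few neighbours, such as that of daf-4, raise this count. It therefore does not show which gene a peak belongs to. The exceptions among the 14 were the summits next to ran-4 and wdr-54.

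The member summits spanned nearly the whole range of the list. Their ranks ran from 98 to 6140 with a median of 2957, beside a median of 3142 for all IDR peaks, and the median signal was 170.5 beside 161.6. Of the 14, 8 were in the stronger 50% of the list and 2, both in daf-14, in the strongest 10%. The median width was 396 bp for the members and for all IDR peaks. GC content within 50 bases of the summit ranged from 28.7% to 56.4% with a median of 43.1%, beside 42.6% over all IDR peaks. The deposited −log10 q-value was 4.07, the highest of the list, for 13 of the 14 and so did not order them.

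**Figure D2:**
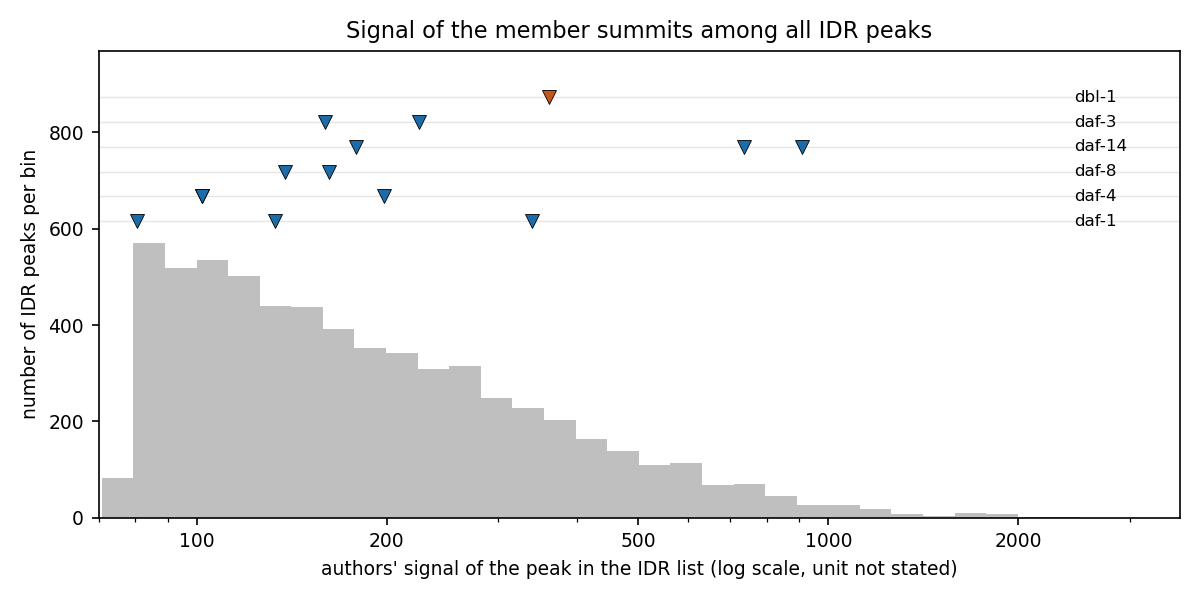
Signal of the member summits (triangles, 1 row per gene, dauer branch in blue and body size branch in orange) above a histogram of the signal of all 6283 IDR peaks, on a log axis whose unit is not stated in the deposited files. The 2 strong daf-14 summits, at 736 and 907, lie in the sparse upper tail, dbl-1 and the strongest daf-1 summit lie at 361 and 340, and the other summits lie between 80.4 and 225. In the row of daf-4 the summits at 102 coincide.

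Each of the 14 summits was overlapped by a peak in both replicate lists. The overlapping peak was among the 6283 strongest of replicate 1 for 13 of the 14 and among those of replicate 2 for 13, and 12 of the 14 met this in both, where the same held for 83.6% of all IDR peaks. The summits of the replicates lay at a median of 26.5 bp from the pooled summit in replicate 1 and 5.5 bp in replicate 2. The pooled list was made from these libraries, so this is not an independent measure of agreement. The rank was better in replicate 2 for 9 of the 14, in lists of 26482 peaks for replicate 1 and 30000 for replicate 2. Of these counts, only that for both replicates has a share over all IDR peaks beside it. The others are not read as particular to these genes. With each replicate list cut to its 6283 strongest peaks, replicate 1 called 7 of 10 genes, against 33.3% of all protein-coding genes, the additional gene being sma-6. Replicate 2 called 6 of 10, against 32.3%, and these were the 6 genes with an IDR summit.

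**Figure D3:**
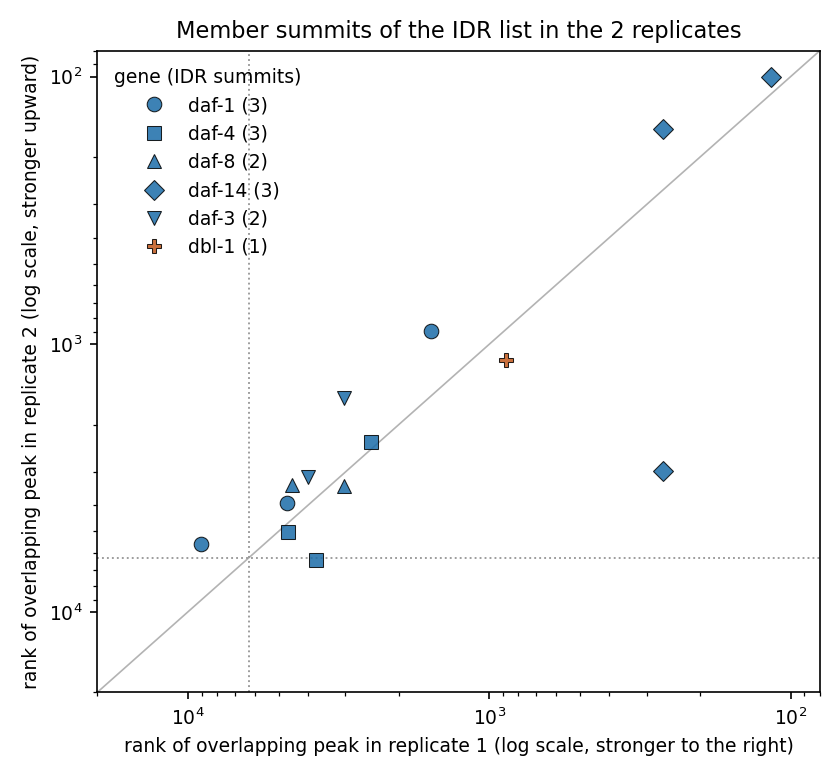
Rank of the overlapping replicate peak for each of the 14 member summits, replicate 1 on the horizontal and replicate 2 on the vertical axis, both on log scales with stronger peaks to the right and up. The grey line marks equal ranks and dotted lines mark rank 6283. The point at the upper right is the strongest daf-14 summit, at rank 116 in replicate 1 and rank 100 in replicate 2, the point nearest to it is the daf-14 summit at ranks 266 and 157, and the daf-14 point far below the line is the summit 2043 bp downstream, which shares its replicate 1 peak (rank 266) with the one at 1841 bp.

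Per length, the windows of the 10 genes held 0.146 IDR summits per kb over 96.22 kb, beside 0.0629 per kb over the windows of all protein-coding genes, which overlap each other. The dauer genes had 0.214 per kb and the body size genes 0.0281 per kb. Both values depend on counting daf-4, at 0.246 per kb, with the dauer genes only. Before the threshold, where the lists include background, 8 of 10 genes had a pooled summit, against 59.3% of all protein-coding genes, and the densities were 0.676 per kb for the dauer genes, 0.366 per kb for the body size genes and 0.288 per kb for all genes. Of the 13 pooled summits in body size genes, 12 belonged to dbl-1 and 1 to sma-2. The windows of the 4 genes without an IDR summit lay in other protein-coding genes over 37.4% to 58.4% of their length, and those of the 6 genes with one over 0 to 37.3%. Among all protein-coding genes, 33.8% of those below the median of this share (37.7%) and 32% of those at or above it had an IDR summit. Its part in the difference among the 10 genes was not tested.

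**Figure D4:**
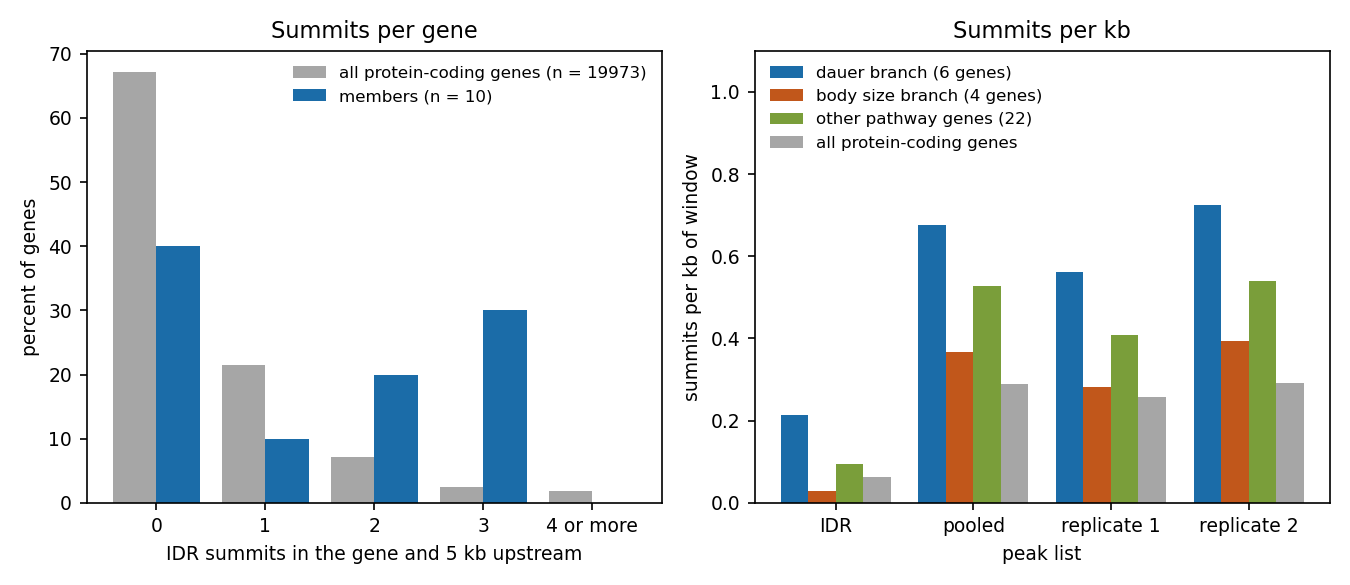
Left, percent of genes by the number of IDR summits in the gene and 5 kb upstream, for 10 members (blue) and 19973 protein-coding genes (grey). Right, summits per kb of window in each of the 4 peak lists, for the dauer genes, the body size genes, the 22 other pathway genes and all protein-coding genes. Dauer genes, counted with daf-4, have the highest bar in every list. Body size genes, counted without daf-4, are below the all-gene bar in the IDR list (0.0281 beside 0.0629) and above it in the other lists.

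The words searched were at few of these summits, 0 to 4 of the 14 for each word. TAATTA was present within 50 bases of 2 of the 14 summits, the strongest of daf-14 and the exonic one of daf-4, and in 4.54% of all IDR summits. The spaced pair and the SMAD palindrome GTCTAGAC were at none of the 14, and at 0.621% and 0.127% of all IDR summits. AGATAA was at 1 (6.08% of all), the strongest of daf-14, and CACGTG at 1 (4.14% of all), the second of daf-14. GAGAGA was at 4 (20.8% of all), 1 summit each in daf-1, daf-4, daf-8 and daf-14. In 28 equally wide windows lying 300 bp from the member summits on either side, AGATAA was present in 2 and none of the other words in any. These windows are not free of peaks, since one beside the daf-14 summit 2043 bp downstream lies in the same deposited peak. No share around all IDR summits is given for them. A match is only a match of letters.

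Other genes of the same pathways were summarised from a list of 22 ligands, receptors and regulators. Of these, 14 had an IDR summit in the gene or 5 kb upstream, beside 32.9% of all protein-coding genes. That share was not matched for window length, and the windows of the list reached 37.53 kb (egl-4). By nearest gene start, 11 of the 22 were called, against 20.7%. The windows of the 22 genes, 284.1 kb in total, held 27 summits at 0.095 per kb, beside 0.0629 per kb over all protein-coding genes. The strongest was 3018 bp upstream of sma-9, which encodes a Schnurri-type zinc finger cofactor of the body size branch, at rank 182 with ranks 211 and 164 in replicates 1 and 2. Its window of 18.69 kb held 5 IDR summits. Next was a summit 1742 bp upstream of kin-29, a salt-inducible kinase gene, at rank 391 with ranks 553 and 306, which lies in an intron of the neighbour tra-4. A summit 302 bp upstream of bra-1, which encodes a BMP receptor-associated protein homologue, was at rank 613 with ranks 536 and 559. In an intron of daf-5, which encodes the Sno/Ski partner of DAF-3, a summit 11748 bp downstream of the start was at rank 689 with ranks 1073 and 540, and the daf-5 window of 24.09 kb held 4 summits.

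The summits of egl-4, a cGMP-dependent protein kinase gene, and of drag-1, a repulsive guidance molecule homologue, followed at ranks 1328 and 1339. The former lay 4275 bp upstream in an intron of ccm-2, and the latter 3785 bp upstream and 223 bp from the start of Y71G12B.35. No IDR summit was found for sma-4, sma-10, lon-1, lon-2, crm-1, adt-2, tsp-14 and unc-129. Of these, the Co-SMAD gene sma-4, the LRIG homologue gene sma-10, the secreted-protein gene lon-1 and the ADAMTS protease gene adt-2 also had no summit in the pooled list. Together with sma-6 and sma-3, these are genes of the body size branch whose windows held no pooled summit. Such windows made up 4 of the 22 listed genes and 2 of the 10 members, against 40.7% of all protein-coding genes. Other genes of the body size branch had pooled summits, among them sma-9 with 18 and dbl-1 with 12, so the lack did not extend to the whole branch. No share over the body size genes alone is given, and a difference between the branches was not tested.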

How the data were processed

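Chromatin immunoprecipitation was sequenced in 2 biological replicates of 1 group, per the labels. The authors deposited peak lists for each replicate, for the pooled replicates and for pooled peaks that passed the irreproducible discovery rate (IDR) step. Each deposited peak has a signal on an unstated scale, a −log10 q-value and a summit offset, and per the deposited file descriptions the lists derive from ce11 alignments. The sources used here do not give the aligner, the peak caller, tool versions, the IDR threshold or the read depth, so depth per sample is unknown. The ce10 lists were not used. Precision beyond the spread of the 2 replicates is therefore unknown.

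Summits were placed on ce11, 1-based, at start, offset and 1 added, and joined to Ensembl release 115 gene models of WBcel235 with Python 3.11.15 and numpy 2.4.6. RefSeq gave the same gene bounds for 9 of the 10 members. Ranks are by signal within a list, and overlap means at least 1 bp. Negative distances are upstream of the outermost annotated start. The code for window assignment was checked on simulated data, where 200 of 200 planted summits were recovered among 19973 genes. The summits were planted inside the windows, so this checks the code and not which gene a peak belongs to. No significance test was made: there is 1 group, and peaks and genes are not replicates. Counts are set beside the same counts over all protein-coding genes. The members and lists were chosen with earlier results of these data known. The text names all members, the 6 other pathway genes with the strongest summits and neighbours that hold or lie nearest a member's summit, and the other pathway genes without a summit are named after their values were seen. Alternatives were other windows, peak lists, thresholds, assignments and word widths.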

Additional observations from a re-analysis of the deposited data

How the results depend on the processing

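No paired analysis was possible because there is 1 group. The count of members with a summit stayed between 5 and 8 in 9 of the 12 alternatives. Beside the share of all protein-coding genes under the same setting, it was 3 with the gene body only (7.49%), 2 with the promoter window (14.7%), 4 with promoter windows at every transcript start (16.2%), 5 with 2 kb upstream (23.8%), 8 with 10 kb upstream (44.2%), 6 with the stronger 50% of peaks (20.9%), 6 with the upstream part cut at the next gene (22.8%) and 6 by nearest gene start (20.7%). The 14 summits became 8 with the stronger 50% of peaks, 54 in the pooled list before the threshold, 7 in gene bodies, 2 in promoter windows and 5 in promoter windows at every transcript start. Density, 0.146 per kb, was 0.0832 with the stronger 50%, 0.561 in the pooled list, 0.116 with 10 kb upstream, 0.167 in promoter windows and 0.189 with the upstream part cut at the next gene. With 1 replicate left out, members numbered 6 to 7, summits 13 to 14 and density 0.135 to 0.146 per kb, the added member being sma-6 without replicate 2. The 14 other pathway genes became 9 with the stronger 50%, 5 in gene bodies, 6 in promoter windows and 8 in promoter windows at every transcript start. For the 6 members with a summit, the rank of the strongest moved by less than 1.5 times in its 3 alternatives. Beside the share of all IDR summits at the same width, TAATTA was at 0 of the 14 summits in 51 bp windows (1.96%) and GAGAGA at 2 (10.9%). Over whole peaks TAATTA was at 4 (14.5%), AGATAA at 3 (20.1%), CACGTG at 3 (8.93%) and the spaced TAAT word at 1 (1.99%). These settings search more or less sequence or keep more or fewer peaks. Read depth is unknown, so a window without a summit does not show that DSC-1 is absent there.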

Other observations

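With 10 kb upstream in place of 5 kb, sma-2 and sma-3 each gained 1 IDR summit and daf-1 had 4 in place of 3, while daf-7 and sma-6 still had none. Of the 29 replicate 1 summits in the 10 windows that no IDR peak overlapped, the one upstream of sma-6 had the best rank, 4328. In replicate 2 the best rank among 40 such summits was 8514, at daf-7.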
